A study of Mus musculus with 11 samples.

Results

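The 6 libraries described here come from GFP-positive cells sorted from the mouse embryonic brain after gain of L3mbtl3, and were chosen by their sample titles, which name the gain-of-function arm and its control. They make up 6 of the 11 samples of the series. The embryos were wild-type CD-1 mice. Either the empty GFP plasmid pCIG2 (3 libraries, GFP control) or the same plasmid carrying L3mbtl3 (3 libraries, L3mbtl3 gain) was electroporated in utero into the dorsal telencephalon at E12.5. Cells with GFP were then isolated by FACS at E15.5. Both arms therefore went through electroporation, GFP expression and sorting. The other samples are E12.5 dorsal telencephalon of L3mbtl3 genotypes, and their values are used here only where stated. The plasmid marks the cells that took it up and the cells that inherit it, so a sorted library holds progenitors and neurons together. In such a mixture, fewer cells of a type and less RNA per cell cannot be told apart. By its title the series is about PRC1, a Polycomb complex, and how L3mbtl3 bears on proneural genes in the cortex, and the comparison asks which transcripts differ when cortical cells carry more L3mbtl3.

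L3MBTL3 is a chromatin-associated protein with MBT domains, which bind methylated lysines, and a SAM domain. In the developing cortex, apical progenitors such as radial glia express Pax6, Sox2 and Hes5, and pass through intermediate progenitors that express Eomes before they become glutamatergic neurons. Proneural factors such as Neurog2 promote that step, and Notch signalling through Hes genes holds progenitors back from it. GABAergic neurons arise in the ventral telencephalon, where Dlx genes are expressed, and microglia and vessels enter the cortex from outside the neural lineage.

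Library totals ran from 18266535 to 20895655 counts. Levels are given as CPM, which are counts scaled to the library size with TMM factors, and differences as log2 fold changes of gain over control. Differences were tested with edgeR's quasi-likelihood test over 14698 genes, two-sided, with Benjamini-Hochberg adjustment, and a gene was called at an adjusted p under 0.05. By Xist and Y-linked counts the 3 control libraries and gain replicate 2 were male, and gain replicates 1 and 3 were female. The labels do not tell whether the 3 libraries of an arm are from different embryos. By sex, gain replicate 2 was not from the same embryo as gain replicates 1 and 3. The p-values reflect the spread of these samples alone. Some of that spread, or all of it among the controls, may be technical.

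L3mbtl3 itself (ENSMUSG00000039089, GRCm38 chromosome 10, 26274468 to 26375185) was high in every gain library. Its level was 50.3, 45.6 and 55.2 CPM in the control libraries and 1402, 1161 and 832.6 CPM in gain libraries. The lowest gain library stood far above the highest control. The mean was 50.4 ± 4.82 CPM in the controls and 1132 ± 286 CPM in gain libraries (SD, n = 3 each). The rise was 4.49 in log2 units (SE 0.217), with an edgeR adjusted p of 0.00136. Without control replicate 2 it was 4.425 and not called (edgeR adjusted p = 0.0539), and over the 16 alternatives the adjusted p ran from 3.50e-111 to 0.0539. A count per gene does not separate transcripts of the plasmid from those of the endogenous gene.

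**Figure D1:**
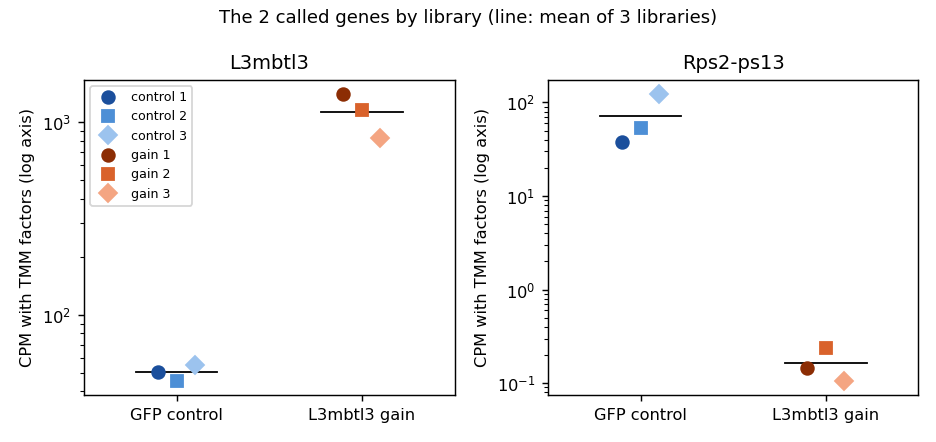
Level of the 2 called genes in each library, in CPM with TMM factors on a log axis, with a line at the mean of the 3 libraries of an arm. L3mbtl3 lay between 832.6 and 1402 CPM in gain libraries and between 45.6 and 55.2 CPM in the controls, and Rps2-ps13 lay at or below 0.240 CPM in gain libraries.

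Across all genes, L3mbtl3 was the only gene that rose by this test, and the pseudogene Rps2-ps13 the only one that fell. The 2 called genes made up 0.0136% of the 14698 genes tested. An unadjusted p under 0.05 was reached by 1264 genes. In the gain libraries 6681 genes were higher and 8017 lower, with a median log2 fold change of -0.03. The lowest gain library lay above the highest control for 1342 genes (9.13%), and the highest gain library below the lowest control for 1107 genes (7.53%). DESeq2 called 80 genes (0.54% of 14820), 47 of them higher, and voom with sample quality weights called 2001 (13.6%), 1296 of them higher. Those weights were 0.294, 3.87 and 0.229 for the 3 controls and 1.49, 1.36 and 1.904 for the gain libraries. Without GFP control replicate 1 the edgeR test called 415 genes (2.77% of 14992), of which 294 were higher, and without GFP control replicate 2 it called 0, with an unadjusted p under 0.05 for 693 genes.

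Rps2-ps13 is annotated as a processed pseudogene of Rps2, which encodes a protein of the small ribosomal subunit (ENSMUSG00000081684, GRCm38 X chromosome, 52898588 to 52899469, plus strand, 882 bases in 1 exon). It received 815, 995 and 2452 reads in the control libraries and 3, 5 and 2 reads in the gain libraries. In CPM that was 38.2, 53.4 and 122.9 against 0.146, 0.240 and 0.107. Every gain library, the male one included, was near the 3 reads that a count of 0 allows, and the controls spread over a wide range. The log2 fold change was -8.697 (SE 0.662), with an edgeR adjusted p of 0.0175, and it rests on the few reads of the gain libraries. It was not called with a term for embryo sex (fold change -8.18, edgeR adjusted p = 0.997). Nor was it called without control replicate 2 (edgeR adjusted p = 0.0930), without gain replicates 1, 2 or 3 (adjusted p = 0.309, 0.0868 and 0.176) or without a filter on low counts (adjusted p = 0.159). Over the 16 alternatives the adjusted p ran from 1.28e-26 (DESeq2) to 0.997. All 5 E12.5 libraries had reads, from 2281 to 3939.

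The sequences show how little separates this pseudogene from its parent gene. Aligned over 882 bases, the transcript of Rps2-ps13 differed from that of Rps2 at 7 bases (99.2% identity) and from that of another pseudogene, Rps2-ps10, at 2 bases (99.8%). The reads were 75 bases long. The window of that length printed here begins at base 47 of the transcript (GRCm38, chrX:52898634-52898708, plus strand) and lies in the middle of the longest run of windows that occur in no other annotated transcript. Capitals mark the bases at which the pseudogene and the other genes differ, and sequences are from GENCODE vM21.
Rps2-ps13: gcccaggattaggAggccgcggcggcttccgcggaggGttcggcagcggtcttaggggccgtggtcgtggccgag
Rps2: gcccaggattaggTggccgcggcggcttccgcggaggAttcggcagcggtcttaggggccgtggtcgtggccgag
Rps2-ps10: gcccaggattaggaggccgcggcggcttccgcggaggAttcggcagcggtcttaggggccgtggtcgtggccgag
Of the 808 windows of 75 bases in the transcript, 673 (83.3%) occurred in annotated transcripts of 51 other genes, and 135 did not. Reads of most of the pseudogene therefore cannot be told from reads of its relatives. Rps2 itself measured 57.6, 97.9 and 87.7 CPM in the controls and 102.0, 110.2 and 121.5 CPM in gain libraries (log2 fold change 0.46, SE 0.190, edgeR adjusted p = 0.573). Summed over the pseudogene and the genes that share a window with it, the level was 102.6, 158.0 and 218.6 CPM in the controls and 106.6, 114.6 and 127.7 CPM in gain libraries. The highest gain library was above the lowest control in that sum, so the arms overlapped.

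The 3 control libraries differed from one another more than the 3 gain libraries did. The SD of log2 CPM over 3 libraries had a median of 0.263 among the controls and 0.120 among the gain libraries, and 78.2% of genes had the larger SD among the controls. A range of more than 1 on the log2 scale was seen in 22.3% of genes among the controls and in 8.44% among the gain libraries. Pairs of control libraries differed by a median of 0.250 (replicates 1 and 2), 0.427 (1 and 3) and 0.265 (2 and 3) in log2 CPM, and pairs of gain libraries by 0.143, 0.130 and 0.138. The first principal component, with 46.3% of the variance, put control replicate 1 at 35.5 and control replicate 3 at -73.8. Control replicate 2, at -1.17, and the gain libraries, at 20.2, 16.2 and 3.11, lay between those ends. On the second component (23.3%) the controls were at 30.6, 27.2 and 6.54 and the gain libraries at -16.4, -7.02 and -40.9, so the arms did not overlap.

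**Figure D2:**
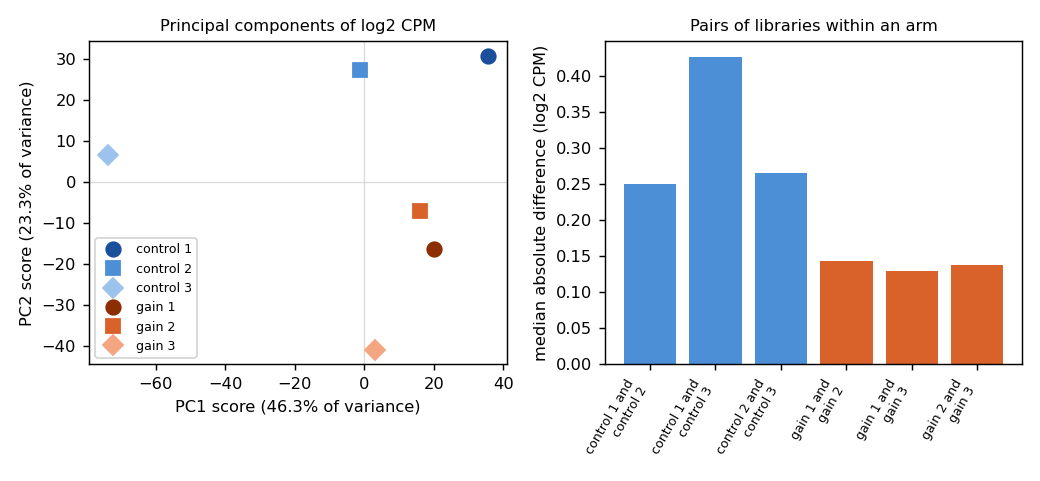
Left, scores of the 6 libraries on the first 2 principal components of log2 CPM over 14698 genes; right, median absolute difference in log2 CPM between libraries of the same arm. The controls spread from 35.5 to -73.8 along the first component, and their pairwise differences of 0.250 to 0.427 exceed the 0.130 to 0.143 of the gain libraries.

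Most genes of apical progenitors were highest in control replicate 1 and lowest in control replicate 3. Of the 30 tested, 24 had control replicate 1 above 2 and 2 above 3, against 32.5% of all genes, and 3 had the reverse order, against 29.4%. Sox2, a transcription factor of neural stem cells, measured 176.6, 89.5 and 29.6 CPM in the controls and 68.9, 67.7 and 48.2 CPM in gain libraries. Nes, an intermediate filament of radial glia, measured 268, 175 and 97.0 CPM against 161, 139 and 160 CPM. Pax6, the homeobox factor of dorsal progenitors, measured 115.0, 74.2 and 41.4 CPM against 84.5, 91.7 and 85 CPM. In each of the 3 genes control replicate 1 was the highest of all 6 libraries, control replicate 3 the lowest, and the gain libraries stayed between them. Slc1a3, a glutamate transporter of radial glia, had the same order among the controls, at 158, 114 and 56.8 CPM, with 109, 88.7 and 85.8 CPM in gain libraries. Lhx2, a LIM homeobox gene of cortical progenitors, had the reverse order, at 177.1, 222.3 and 282.5 CPM in the controls, with 251.4, 289.9 and 373.4 CPM in gain libraries. Ptn, a secreted growth factor, was lowest in control replicate 1, at 505.0 CPM against 848.2 and 815.0 CPM in the other controls, with 571.9, 633.3 and 503.6 CPM in gain libraries. The apical progenitor list had 30 tested members, of which 6 were higher and 24 lower in the gain libraries, with 0 called. Arms without overlap were found in 0 of them, beside 9.13% (gain higher) and 7.53% (gain lower) of all genes. The list's median log2 fold change was -0.21, beside -0.03 over all genes. Without control replicate 1, 24 members were higher and 6 lower, and the median was 0.16.

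Of 32 tested genes of G2 and M phase, all 32 had control replicate 1 above 2 and 2 above 3, as did 34 of 36 genes of G1 and S phase. Plk1, a kinase of mitosis, measured 54.8, 34.4 and 16.7 CPM in the controls and 27.4, 24.04 and 21.8 CPM in gain libraries, where the values lay within the range of the controls. Of 32 genes of G2 and M phase, 27 were lower in the gain libraries, with a median of -0.31 and 0 called. Without control replicate 1, 25 of the 32 were higher and the median was 0.33. Summed over the list, G2 and M phase genes had 3095, 1726 and 751.7 CPM in the controls and 1712, 1689 and 1422 CPM in gain libraries. Of 36 genes of G1 and S phase 34 were lower, with a median of -0.24, and 13 were lower without control replicate 1. Chaf1b, a subunit of the chromatin assembly factor that loads histones during replication, had the reverse order among the controls, and its arms did not overlap, with 40.4, 42.9 and 45.7 CPM in the controls and 29.9, 33.2 and 30.6 CPM in gain libraries (log2 fold change -0.46, SE 0.103, edgeR adjusted p = 0.464).

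Genes of the ventral telencephalon and of GABAergic neurons had the widest range between control libraries. By range of log2 CPM among the controls, the 8 widest coding genes with a mean of at least 10 CPM were Zfp503, Isl1, Six3, Dlx1, Gad1, Sp9, Dlx2 and Gad2. Dlx2, a homeobox gene of ventral progenitors, measured 134.1, 50.1 and 2.36 CPM in the controls and 34.8, 26.4 and 1.33 CPM in gain libraries. Gad1, an enzyme of GABA synthesis, measured 111.0, 30.8 and 1.45 CPM against 37.4, 39.3 and 2.08 CPM. Isl1, a LIM homeobox gene of striatal neurons, measured 48.0, 3.28 and 0.201 CPM against 3.12, 19.7 and 0.320 CPM. In each of these genes replicate 3 was the lowest library of its arm. The 5 defining ventral markers Dlx1, Dlx2, Dlx5, Gad1 and Gad2 summed to 728.5, 225.3 and 10.7 CPM in the controls and 190.0, 182.3 and 10.1 CPM in gain libraries, and none was at 0 in any library. Of 27 tested members of the ventral list 24 were lower, with a median of -0.90 and 0 called. Without control replicate 1, 16 were higher and 11 lower, with a median of 0.08.

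Proneural genes and Notch pathway genes gave no calls. Neurog2, the main proneural factor of the dorsal telencephalon, measured 170.8, 194.0 and 144.8 CPM in the controls and 171.8, 201.3 and 193.4 CPM in gain libraries (log2 fold change 0.15, SE 0.125, edgeR adjusted p = 0.697). Eomes, the T-box factor of intermediate progenitors, measured 272.0, 326.7 and 238.8 CPM against 284.9, 323.4 and 349.1 CPM (0.19, SE 0.137, edgeR adjusted p = 0.659). The arms overlapped in both genes. Neurog1, a relative of Neurog2, was low, at 5.34, 3.98 and 4.76 CPM against 3.701, 8.59 and 7.68 CPM. Hes5, a Notch target, measured 16.4, 11.9 and 4.36 CPM against 11.9, 8.35 and 7.89 CPM, and Hes1, another, 13.5, 6.82 and 2.21 CPM against 5.70, 5.52 and 9.49 CPM. Dll1, a Notch ligand, measured 77.4, 50.8 and 42.2 CPM against 56.5, 51.8 and 56.7 CPM, and Rbpj, which carries the Notch signal to DNA, 55.7, 55.8 and 42.4 CPM against 55.2, 60.9 and 84.2 CPM. Of 19 tested proneural genes 8 were higher and 11 lower (median -0.06), of 28 Notch genes 6 and 22 (median -0.13), and of 24 intermediate progenitor genes 11 and 13 (median -0.03), with 0 called in each list. Every gain library lay above every control in 2 proneural genes (9.13% of all genes), Tcf4 and Nhlh1. Their log2 fold changes were 0.41 and 0.35 (edgeR adjusted p = 0.486 and 0.551), and that of Tcf4 was -0.01 with the length offset. Every gain library lay below every control in 2 Notch genes (7.53% of all genes). Hes6 was among them (-0.32, edgeR adjusted p = 0.472). Without control replicate 1 the Notch list had 16 higher and 12 lower (median 0.068), the proneural list 10 and 9 (median 0.0044) and the intermediate progenitor list 18 and 6 (median 0.15).

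Some neuronal genes, Neurod2 and Neurod6 among them, ran the other way among the controls and were highest in control replicate 3. Neurod2, a bHLH factor of cortical excitatory neurons, measured 697, 1170 and 1479 CPM in the controls and 950, 822 and 970 CPM in gain libraries. Neurod6, its relative, measured 891, 1425 and 1905 CPM against 1256, 1354 and 1437 CPM. The gain libraries lay within the range of the controls in both genes. Tbr1, a T-box factor of layer 6 and of newborn neurons, measured 374.2, 426.2 and 370.2 CPM against 457.9, 334.6 and 296.2 CPM. Bcl11b, a factor of subcortical projection neurons that striatal neurons also express, was highest in control replicate 1, at 349.1 CPM, against 117.9 to 214.9 CPM in the other libraries. Neurod1, a bHLH factor of newborn neurons, measured 119.1, 119.5 and 73.4 CPM against 142.3, 111.7 and 121.2 CPM. Dcx, a microtubule-associated protein of migrating neurons and an X-linked gene, was the single one of the 16 neurogenesis genes followed by name whose arms did not overlap. Over all genes, 9.13% had every gain library above every control and 7.53% every gain library below. Dcx measured 1605, 1351 and 1345 CPM in the controls and 1846, 1786 and 1838 CPM in gain libraries (log2 fold change 0.35, SE 0.105, edgeR adjusted p = 0.518). Its fold change was 0.13 with an offset for gene length. None of the 16 genes was called.

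**Figure D3:**
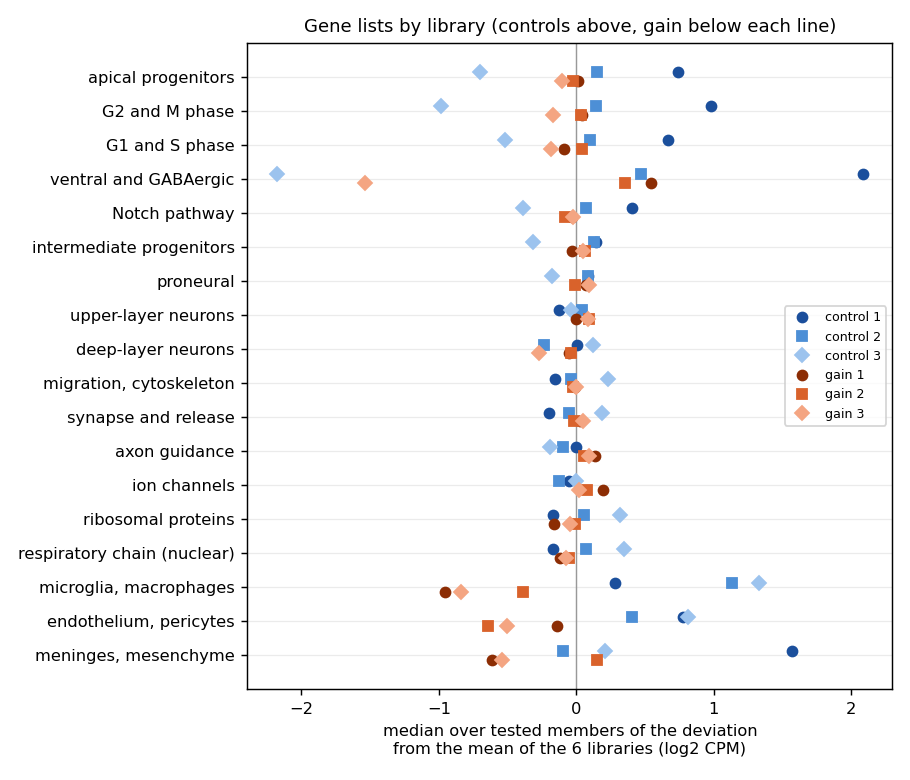
Median over the tested members of 18 gene lists of the deviation of each library from the mean of the 6 libraries, in log2 CPM, with controls above and gain libraries below each line. Apical progenitor, cell cycle and ventral lists spread widely among the controls with the gain libraries between them (a summed level of 3095 to 751.7 CPM for G2 and M phase), while the microglia list is lower in each gain library than in each control.

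Many genes of microglia were lower in all 3 gain libraries. Csf1r, the growth factor receptor on which microglia depend, received 100, 201 and 186 reads in the controls and 21, 53 and 16 reads in the gain libraries, or 4.69, 10.8 and 9.32 CPM against 1.02, 2.54 and 0.853 CPM. P2ry12, a purinergic receptor of microglia, measured 2.39, 3.81 and 4.81 CPM against 0.341, 0.960 and 0.587 CPM. Laptm5, a lysosomal protein of blood and microglial cells, measured 2.30, 5.05 and 8.22 CPM against 0.584, 0.480 and 0.960 CPM. The arms did not overlap in these 3 genes, and control replicate 1 was the lowest control in each. Their log2 fold changes were -2.48 (SE 0.502), -2.53 (SE 0.465) and -2.94 (SE 0.540), each with an edgeR adjusted p of 0.457, so none was called. C1qa and C1qb, subunits of complement C1q, had log2 fold changes of -2.15 and -2.42, and Cx3cr1, the fractalkine receptor, of -1.51, with arms that did not overlap and an edgeR adjusted p of 0.464, 0.464 and 0.486.

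Of 31 listed microglia and macrophage genes 22 passed the filter on low counts. A gene could pass it through the controls alone, and one that did had to be lower. Of the 22 genes 1 was higher and 21 lower, with a median log2 fold change of -2.03. The highest gain library lay below the lowest control in 16, against 7.53% of all genes. The edgeR test called 0. It called 8 of the 22 without control replicate 1 (2.77% of all genes), and voom with quality weights called 16 (13.6% of all genes). The number lower was 20 or 21 with any one of the 6 libraries left out. The same 22 genes were counted each time, so the filter bears on these numbers too. Cd68, a lysosomal protein of phagocytes and the member that was higher, measured 4.12, 3.65 and 2.91 CPM against 4.58, 3.84 and 4.21 CPM, and Sall1, which progenitors express as well, 73.4, 39.3 and 21.6 CPM against 36.4, 39.0 and 33.8 CPM. Both were picked out after their values were seen. The 5 defining markers Csf1r, P2ry12, Cx3cr1, C1qa and C1qb summed to 12.0, 28.8 and 25.7 CPM in the controls and 3.51, 6.43 and 4.16 CPM in gain libraries, a mean of 22.1 ± 8.96 against 4.70 ± 1.54 CPM (SD, n = 3 each), and none was at 0 in any library. The listed genes, Sall1 included, summed to 151.7, 159.8 and 142.7 CPM against 78.7, 93.5 and 79.7 CPM. In each of the 5 defining microglial markers control replicate 1 was the lowest control, while in most apical progenitor genes it was the highest. Of the 22 tested genes of the microglial list, 7 had control replicate 1 below 2 and 2 below 3. The reverse order was seen in 2, and 13 had another order.

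Apoe, an apolipoprotein that glia and macrophages make, measured 22.02, 27.2 and 30.6 CPM in the controls and 14.3, 11.3 and 9.71 CPM in gain libraries (log2 fold change -1.18, SE 0.196, edgeR adjusted p = 0.457). Selenop, a secreted selenium carrier, measured 4.36, 7.63 and 6.52 CPM against 2.19, 1.63 and 0.747 CPM (-2.01, SE 0.419, edgeR adjusted p = 0.457). In both genes each gain library was lower than each control. DESeq2 called both (adjusted p = 0.000152 and 0.00208).

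Several vessel genes had fewer reads in the gain libraries, at levels of a few CPM or less. Cdh5, the cadherin of endothelial junctions, received 43, 31 and 53 reads in the controls and 11, 13 and 5 reads in the gain libraries. Cldn5, a tight junction protein, received 36, 40 and 54 reads against 18, 11 and 13, and Pecam1, an adhesion protein, 35, 29 and 46 reads against 5, 3 and 15. Their arms did not overlap. The log2 fold changes were -2.13 (SE 0.431), -1.63 (SE 0.371) and -2.21 (SE 0.615), with edgeR adjusted p of 0.457, 0.464 and 0.491. Of 30 listed endothelial and pericyte genes 18 were tested, of which 17 were lower, with a median of -0.94, 8 with no overlap (7.53% of all genes) and 0 called. As with the microglial list, a gene could pass the filter through the controls alone, and one that did had to be lower. The member that was higher was Igf1r, a growth factor receptor found in many cell types, at 76.4, 61.5 and 58.7 CPM against 69.1, 73.2 and 75.0 CPM, named after its values were seen. The 5 defining endothelial markers summed to 8.34, 8.38 and 10.2 CPM in the controls and 3.604, 2.02 and 2.19 CPM in gain libraries, and Flt1 was at 0 in gain replicate 2. Meningeal markers (Col1a1, Col1a2, Dcn and Lum) summed to 34.4, 4.57 and 12.3 CPM in the controls and 2.05, 7.92 and 4.59 CPM in gain libraries, where the arms overlapped and Lum was at 0 in gain replicate 1. Whether microglial and vessel transcripts came from GFP-positive cells or from other cells in the sorted fraction was not tested.

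Of the ion channel, axon guidance and synapse genes tested, more were higher than lower in the gain libraries. For the synapse list this turned without control replicate 1 (20 higher and 25 lower, median -0.029). Gria2, an AMPA receptor subunit, measured 1217, 1208 and 1020 CPM in the controls and 1663, 1527 and 1732 CPM in gain libraries (log2 fold change 0.51, SE 0.1102, edgeR adjusted p = 0.457). Cacna2d1, an auxiliary subunit of calcium channels, measured 177.8, 195.7 and 195.5 CPM against 254.7, 250.6 and 274.7 CPM (0.45, SE 0.0838, edgeR adjusted p = 0.457). Kcnh7, a potassium channel, measured 29.9, 24.2 and 23.96 CPM against 35.9, 40.0 and 40.2 CPM (0.57, SE 0.128, edgeR adjusted p = 0.464). The arms did not overlap in these 3 genes. Dlg2, a scaffold of the postsynaptic density, had a log2 fold change of 0.60 (SE 0.103), Pclo, a scaffold of the presynaptic active zone, of 0.78 (SE 0.154), and Ptprd, a synaptic receptor phosphatase, of 0.46 (SE 0.0947), all with an edgeR adjusted p of 0.457. Robo2, a Slit receptor, had 0.33 (SE 0.0881) and Nrp2, a semaphorin receptor, 0.73 (SE 0.193), both with an edgeR adjusted p of 0.486. Of 56 tested ion channel genes 38 were higher and 18 lower (median 0.15). In 12 every gain library lay above every control, against 9.13% of all genes, and in 0 below, against 7.53%. Of 43 axon guidance genes 28 were higher (median 0.11, 11 with every gain library higher), and of 45 synapse and release genes 28 (median 0.06, 8 with every gain library higher), beside the same 9.13% of all genes. None of these genes was called. The ion channel list had a median exonic length of 8618 bases, against 4140 over all coding genes tested, and in the longest class of coding genes 19.96% had every gain library higher. With an offset for gene length the median fold change was 0.017 for ion channels, 0.0064 for axon guidance and -0.056 for synapse genes.

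The trend with gene length differed between control libraries. Length here is the number of exonic bases per gene in the deposited files. Across the 12631 coding genes, the deviation of a library from the mean of all 6 correlated with length with a Spearman rho of 0.243, -0.335 and -0.343 in the controls and 0.309, 0.244 and 0.230 in the gain libraries. Control replicate 1 thus had the sign of the gain libraries, and control replicates 2 and 3 the opposite sign. These are correlations across genes, which are not independent replicates and share each library's depth and preparation. The log2 fold change correlated with length with a rho of 0.354. In 5 classes of equal size, its median was -0.15, -0.10, -0.05, 0.02 and 0.13 from the shortest class (255 to 2328 bases) to the longest (7078 to 116825 bases). In the longest class 19.96% of genes had every gain library above every control and 3.25% the reverse, and in the shortest class 2.73% and 10.4%. With the length offset the medians ran from -0.04 to -0.02 and rho was 0.0135, while the edgeR test again called 2 genes.

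**Figure D4:**
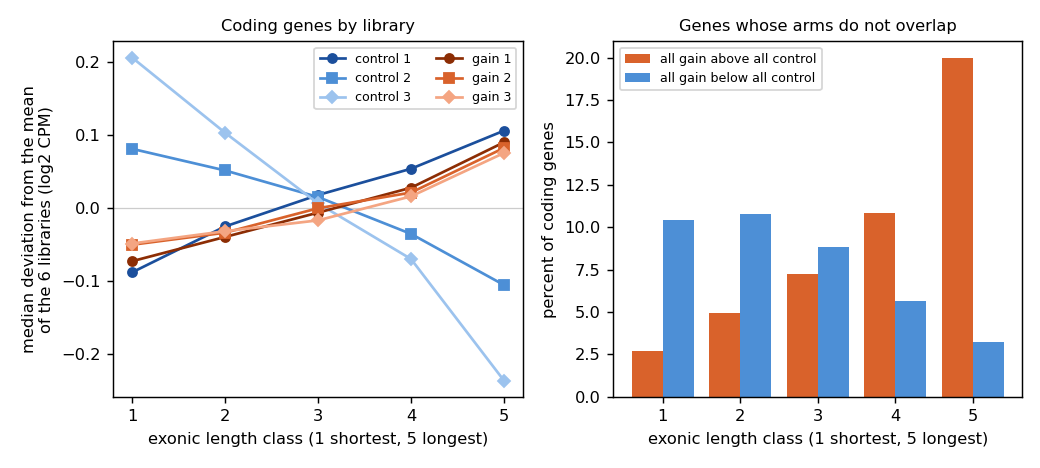
Left, median deviation of each library from the mean of the 6 libraries (log2 CPM) in 5 classes of coding genes by exonic length; right, percent of coding genes in each class whose arms do not overlap. Control replicates 2 and 3 fall with length, and the gain libraries and control replicate 1 rise. The share with every gain library higher goes from 2.73% to 19.96%.

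The length of called genes followed the same trend where other settings made many calls. Coding genes called higher had a median exonic length of 8021 bases with DESeq2, 8063 with voom and quality weights and 10662 with edgeR without control replicate 1. Those called lower had 2943, 2929 and 2802 bases. Of the 415 genes called without control replicate 1, 49 were among the 80 of DESeq2 and 400 among the 2001 of voom with quality weights. These calls share all 3 gain libraries and 2 controls. Short genes include those of the ribosome and of the respiratory chain. Of 76 ribosomal protein genes 68 were lower (median -0.14), and of 50 nuclear genes of the respiratory chain 46 (median -0.19), with 0 called in both lists. Their summed levels were 15100, 17720 and 21610 CPM against 15250, 16820 and 16750 CPM for the ribosomal proteins, and 5163, 6050 and 7293 CPM against 5217, 5483 and 5490 CPM for the respiratory chain, so that control replicate 3 stood highest and the gain libraries lay between the controls. Without control replicate 3, 41 of the 76 ribosomal protein genes were lower (median -0.0087) and 35 of the 50 respiratory chain genes (median -0.034). With the length offset the medians were -0.024 and -0.089.

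Rpl26, a protein of the large ribosomal subunit, measured 22.1, 100.8 and 102.2 CPM in the controls and 26.5, 29.2 and 29.9 CPM in gain libraries. Control replicate 1 was below the gain libraries and the other controls far above them, so the arms overlapped, and the log2 fold change was -1.39 (SE 0.503, edgeR adjusted p = 0.551). Without control replicate 1 it was -1.83 and was called (edgeR adjusted p = 0.00120). Whether related pseudogenes affect the count of Rpl26 was not tested, so this value is uncertain.

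The next coding genes had the smallest unadjusted p, a mean of at least 2 CPM and no overlap between arms. They also kept 1 sign in every fit that left out a library. L3mbtl3 and symbols that end in Rik or are Gm and digits were left out. On the higher side these genes were Sh3bgrl2, Tpm3-rs7, Slc26a7, Pde4b, Dlg2, Srrm4, Cacna2d1, Ryr1, Ank3, Prkca, Kidins220 and Lca5. Srrm4, a splicing factor that drives neuronal microexons, measured 245.2, 246.8 and 244.0 CPM in the controls and 314.8, 347.1 and 343.7 CPM in gain libraries (log2 fold change 0.45, SE 0.0794). Pde4b, a phosphodiesterase of cAMP, measured 20.5, 20.7 and 20.7 CPM against 30.2, 31.1 and 33.5 CPM (0.61, SE 0.105). Ank3, the ankyrin of the axon initial segment, measured 320.5, 279.6 and 308.3 CPM against 419.7, 421.1 and 406.8 CPM (0.46, SE 0.0862). Kidins220, a scaffold of neurotrophin receptors, measured 535.7, 487.9 and 498.0 CPM against 735.8, 681.3 and 668.0 CPM (0.45, SE 0.0886). In these 4 genes the gap between arms was wider than the range within either. The left-out coding gene 9330159F19Rik would have ranked above Kidins220 and Lca5 by unadjusted p, at 225.8, 217.4 and 215.0 CPM against 284.7, 293.1 and 281.0 CPM. Slc26a7, an anion transporter, had the largest fold change of the 12 at 1.29 (SE 0.219), from 2.71 ± 0.223 to 6.62 ± 1.02 CPM (SD, n = 3 each). All 12 had an edgeR adjusted p of 0.457. Of the 12, 11 were longer than the median coding gene, with a median of 8827 bases, and the length offset took the fold change of Ank3, a gene of 33152 exonic bases, to 0.01, that of Srrm4 to 0.31 and that of Sh3bgrl2 to 0.55. Tpm3-rs7, a short gene of 2106 bases, had 0.72 and, with the offset, 0.81.

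The same rule on the lower side named Apoe, Apcdd1, P2ry12, Laptm5, H1fx, Alyref, Mapkapk2, Bmpr1b, Csf1r, Serpine2, Dlgap3 and Ica1l, of which 3 are the microglial genes above. Apcdd1, a membrane inhibitor of Wnt and BMP signalling, measured 25.4, 15.6 and 19.9 CPM in the controls and 9.64, 5.71 and 7.36 CPM in gain libraries (log2 fold change -1.42, SE 0.259). Bmpr1b, a BMP receptor, measured 20.4, 29.0 and 23.2 CPM against 14.8, 12.8 and 12.8 CPM (-0.85, SE 0.168). Serpine2, a secreted protease inhibitor, measured 6.47, 5.21 and 5.86 CPM against 3.02, 2.64 and 2.03 CPM (-1.19, SE 0.242). H1fx, a linker histone, measured 107.4, 120.5 and 130.3 CPM against 82.8, 59.1 and 73.0 CPM (-0.74, SE 0.140). Alyref, an mRNA export factor, measured 129.8, 139.7 and 132.4 CPM against 99.3, 105.0 and 99.9 CPM (-0.40, SE 0.0765). Each gain library was below each control in these genes, and the 12 genes had an edgeR adjusted p of 0.457. Of the 12, 5 were longer than the median coding gene.

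**Figure D5:**
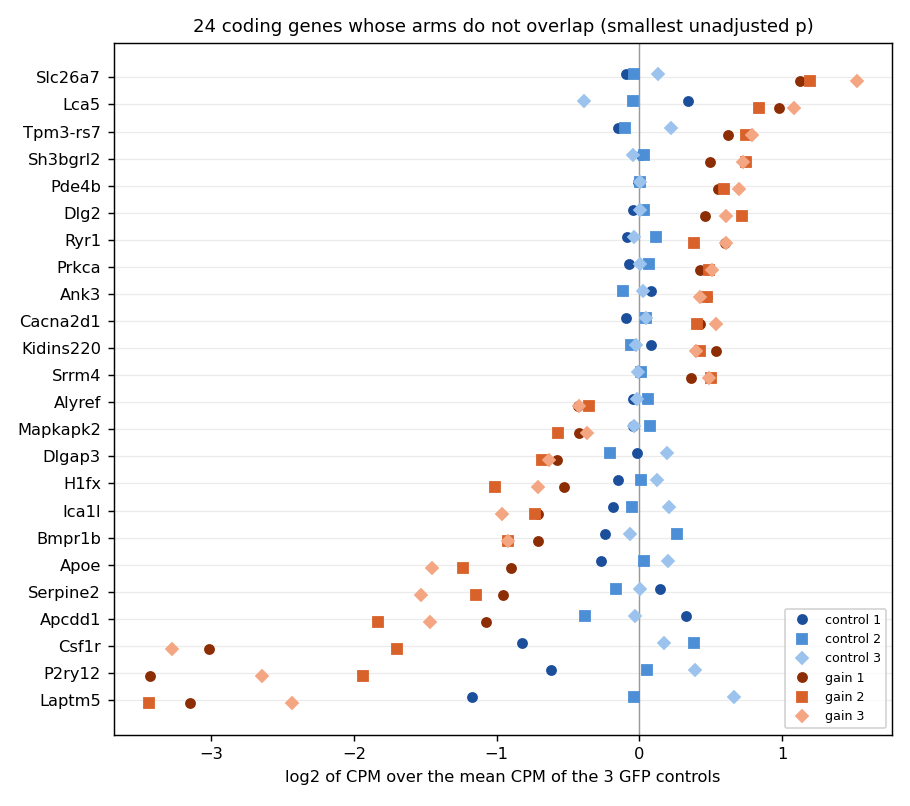
The 24 coding genes, 12 per direction, with the smallest unadjusted p, a mean of at least 2 CPM and arms that do not overlap. L3mbtl3 and symbols ending in Rik or made of Gm and digits are left out. Each point is the log2 ratio of a library's CPM to the mean CPM of the 3 GFP controls. Controls are above and gain libraries below each line. Fitted fold changes run from -2.94 for Laptm5 to 1.29 for Slc26a7, and the microglial genes Csf1r, P2ry12 and Laptm5 have the widest spread among the controls.

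The lists of chromatin complexes around L3mbtl3 had medians near that of all genes, with single members apart. Of 38 tested PRC1 genes 20 were higher and 18 lower (median 0.02), and of 13 PRC2 genes 7 and 6 (median 0.02). In 4 PRC1 genes every gain library lay above every control (9.13% of all genes). In 1 PRC1 gene every gain library lay below every control (7.53% of all genes). Phc2 and Phc3, Polyhomeotic subunits of canonical PRC1, were among these genes without overlap, on opposite sides. Phc2 measured 311.1, 311.9 and 352.8 CPM in the controls and 260.1, 262.4 and 266.2 CPM in gain libraries (log2 fold change -0.31, SE 0.0852, edgeR adjusted p = 0.491). Phc3 measured 80.6, 59.5 and 54.0 CPM against 90.4, 90.0 and 90.3 CPM (0.48, SE 0.149, edgeR adjusted p = 0.528), and 0.21 with the length offset. Among 25 tested genes of MBT and SAM proteins and of the LSD1 complex, 15 were higher and 10 lower (median 0.06, 6 with every gain library above every control, against 9.13% of all genes). Samd11, a SAM-domain protein, had the largest difference there, at 0.281, 0.322 and 0.501 CPM in the controls and 3.701, 2.74 and 0.960 CPM in gain libraries (2.73, SE 0.585, edgeR adjusted p = 0.457). Its gain libraries all stood above its controls but differed among themselves. None of these genes was called.

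Stress and noncoding transcripts gave a few values apart from the lists above. Of 30 tested genes of the unfolded protein and heat shock responses 23 were higher and 7 lower, with a median of 0.12, 7 with every gain library above every control (9.13% of all genes) and 0 called. Chac1, a target of the integrated stress response, measured 3.14, 3.92 and 3.66 CPM in the controls and 8.82, 8.64 and 5.23 CPM in gain libraries (log2 fold change 1.08, SE 0.263, edgeR adjusted p = 0.464), and Asns, asparagine synthetase, 28.1, 32.8 and 36.3 CPM against 41.4, 50.9 and 38.3 CPM (0.43, SE 0.1498, edgeR adjusted p = 0.551). Malat1, a nuclear long noncoding RNA, measured 979.3, 635.4 and 591.0 CPM against 1686, 1275 and 1112 CPM (0.89, SE 0.233, edgeR adjusted p = 0.486). Kcnq1ot1, an imprinted noncoding RNA of 84395 exonic bases, had a log2 fold change of 0.69 (SE 0.127, edgeR adjusted p = 0.457) and 0.09 with the length offset. The noncoding gene Dubr had 21.2, 14.1 and 13.7 CPM against 35.2, 32.5 and 45.8 CPM (1.21, SE 0.216, edgeR adjusted p = 0.457), and 1.21 with the offset. The transcript 4933404O12Rik had 26.7, 15.52 and 17.6 CPM against 5.46, 4.80 and 5.71 CPM (-1.91, SE 0.238, edgeR adjusted p = 0.353), and was called by DESeq2 (adjusted p = 8.62e-10).

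Few genes were read in 1 arm alone. With at least 20 reads in each library of an arm and at most 5 in each library of the other, limits set after the values were seen, 3 genes passed. Rps2-ps13 was one. Sycp2l, a paralog of a synaptonemal complex protein, received 2, 0 and 0 reads in the controls and 41, 37 and 34 in the gain libraries. The predicted gene Gm9008 received 0 reads in each control, which allows a level of up to 0.1406, 0.1611 and 0.1504 CPM (3 counts per library, covering counting error only), and 68, 32 and 24 reads in the gain libraries. Neither was called by edgeR (adjusted p = 0.440 and 0.457), and both were called by DESeq2 (adjusted p = 0.000608 and 2.21e-05). Among the E12.5 libraries, Gm9008 had 84 reads in the wild-type library and at most 1 in the others.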

How the data were processed

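Stranded libraries of polyadenylated RNA were read from 1 end over 75 bases, as the labels' protocols state. Each deposited file gives counts of reads per gene that the authors made with featureCounts 2.0.1 (reverse strand, GRCm38 genes), per the file headers. Per the submitters' processing notes, the tools also included HISAT2 2.2.1 and SAMtools 1.9. The annotation release is not given in the sources used here. The recorded command shows no option for reads that map to several places or overlap genes, so pseudogenes and paralogs are uncertain. Of 46078 gene identifiers 45143 had a symbol.

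Samples were grouped by title. The main test on the 6 libraries was the quasi-likelihood test of edgeR 4.0.16 with robust dispersion, TMM scaling and its default filter on low counts (R 4.3.3). CPM divides a gene's count by the library's total over tested genes times its TMM factor. The SE is the absolute log2 fold change divided by the square root of the F statistic, and log2 CPM used a prior count of 2. The alternatives were DESeq2 1.42.0, voom with sample quality weights (limma 3.58.1), library totals without TMM factors, no filter and a stricter one, all 11 libraries in one fit, the replicate number as a block, an offset for exonic length, both together, a term for embryo sex, and each of the 6 libraries left out. Counts of list members with a library left out, and by the order of the controls, were added after seeing the data. The fit was tested on simulated data.

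The text draws on L3mbtl3, up to 12 coding genes per direction with the smallest p, a mean of at least 2 CPM, no overlap between arms and 1 sign in every fit that leaves out a library (symbols ending in Rik or made of Gm and digits left out), up to 10 per direction called in the most alternatives, up to 3 members per list by p, the 8 with the widest range among controls at a mean of at least 10 CPM, 16 neurogenesis genes and up to 4 noncoding genes per direction. Not all of these are described, and 2 of the neurogenesis genes are not reported here. Sall1, Cd68, Igf1r, Gm9008, Sycp2l, C1qa, C1qb, Cx3cr1, Slc1a3, Nes, Neurod2 and Neurod6 were added after their values were seen. The 36 lists (1073 of 1082 symbols found) and the genes described were chosen with earlier results of these data known. No set test was run. Windows of 75 bases of Rps2-ps13 were compared with GENCODE vM21 transcripts (GRCm38) and aligned with Biopython 1.88.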

Additional observations from a re-analysis of the deposited data

How the results depend on the processing

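Depth was even between libraries, so it limits mainly the microglial and vessel genes, which had few reads per library. The number of called genes, 2 (1 higher, 1 lower), was 80 with DESeq2 (47 and 33), 2001 with voom and quality weights (1296 and 705) and 1 with a term for embryo sex (1 and 0). It was 3 without a filter on low counts, with 2 higher. When each library was left out it ran from 0 (without control replicate 2) to 415 (without control replicate 1), with 0 to 294 higher and 0 to 121 lower. The 6 calls without gain replicate 2 included Xist and 4 Y-linked genes.

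The titles number the replicates but do not say whether same-numbered libraries of the arms belong together. Deviations of same-numbered libraries from their arm's mean correlated at 0.18, 0.00998 and 0.257. Control replicates 1 and 3 correlated best with the gain library of their own number, and control replicate 2 with gain replicate 1 (0.0423). These correlations do not decide whether the samples are paired. With the number as a replicate block, 3 genes were called, 2 higher, the third being Xist, and also 3, 2 higher, with the block and the length offset.

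L3mbtl3 kept its direction in all 16 alternatives and its call in 15, and was not called without control replicate 2 (fold change 4.425, from 4.31 to 4.67 over the libraries left out, adjusted p = 0.0539). The call of Rps2-ps13 was lost in 6 of the 16, with fold changes from -9.06 to -8.055 over the libraries left out.

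The median of the endothelial list was -1.35 with the sex term, and that of the ion channel list 0.017 with the length offset and 0.043 with the block and the offset. With each library left out, the number of lower members ran from 6 to 28 for apical progenitors, 11 to 25 for ventral genes and 7 to 32 for G2 and M phase, the lowest each time without control replicate 1.

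Over the libraries left out, log2 fold changes that changed sign ran from -1.11 to 0.049 for Sox2, -0.12 to 0.59 for Pax6, -0.59 to 0.21 for Hes5, -0.56 to 0.62 for Hes1, -0.53 to 0.17 for Nes, -0.53 to 0.14 for Slc1a3, -0.30 to 0.22 for Neurod6, -0.30 to 0.021 for Tbr1, -0.54 to 0.24 for Bcl11b, -1.43 to 0.71 for Gad1, -2.002 to 0.48 for Gad2, -2.91 to 1.40 for Zfp503, -3.30 to 2.16 for Isl1, -2.27 to 0.42 for Six3, -0.22 to 0.25 for Dll1 and -0.63 to 0.26 for Sall1. Other settings that turned a sign gave 0.0397 for Hes5, 0.18 for Hes1, 0.084 for Neurod6 and 0.0085 for Dll1 with the replicate block with length offset, and 0.023 for Hes1, -0.0071 for Neurog2 and 0.091 for Dll1 with the voom weights, and 0.10 for Hes1 and 0.0037 for Neurod6 with the replicate block, and 0.036 for Neurod6 with the length offset, and 0.0065 for Bcl11b, 0.28 for Zfp503, 0.19 for Isl1 and 0.14 for Six3 with the term for embryo sex. The cause was not tested.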

Other observations

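Other cell types and pathways gave 0 called genes with edgeR, and an unadjusted p under 0.05 was reached by 1264 genes over the whole table. Of 20 tested deep-layer neuron genes 3 were higher and 17 lower in the gain libraries (median log2 fold change -0.25), and of 22 upper-layer genes 14 and 8 (median 0.12). The deep-layer median was 0.099 with voom weights and -0.092 without control replicate 1 (8 higher, 12 lower), and the upper-layer median -0.022 with the length offset. Of 38 genes of neuronal migration and the cytoskeleton 15 were higher and 23 lower (median -0.07), and 29 and 9 without control replicate 3 (median 0.072). Cajal-Retzius genes had 3 higher and 10 lower of 13 tested (median -0.51), and genes of the cortical hem and Wnt signalling 4 and 14 of 18 (median -0.25). Without control replicate 1 they had 6 and 7 (median -0.084) and 9 and 9 (median -0.038), and the Cajal-Retzius median was 0.028 with the term for embryo sex. The arms overlapped in all 13 Cajal-Retzius genes tested, where 9.13% (gain higher) and 7.53% (gain lower) of all genes had arms without overlap.

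Of 20 tested astrocyte and oligodendrocyte genes 4 were higher and 16 lower (median -0.57), 4 of them with each gain library below each control (7.53% of all genes). The median was -0.26 without control replicate 1. The oligodendrocyte lineage markers Olig1, Olig2, Pdgfra and Sox10 summed to 30.5, 19.2 and 0.451 CPM in the controls and 13.1, 4.90 and 1.71 CPM in gain libraries, so control replicate 3 was the lowest library, as it was for ventral progenitor genes among the controls. Olig1 was at 0 in control replicate 3, and Sox10 at 0 there and in gain replicate 3. Meningeal genes had 3 higher and 14 lower of 17 (median -0.89), erythroid genes 1 and 8 of 9 (median -0.61), and choroid plexus genes 3 and 6 of 9 (median -0.42). Such genes have few reads and could pass the filter through the controls alone. The meningeal median was -0.45 without control replicate 1 and -2.02 without gain replicate 2, the erythroid one -0.11 without control replicate 3, and the choroid plexus one -0.095 without gain replicate 1.

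Splicing regulators had 22 higher and 15 lower of 37 (median 0.04), and long noncoding RNAs 11 and 8 of 19 (median 0.08). Immediate early genes had 14 and 15 of 29 (median -0.05), p53 targets 11 and 11 of 22 (median -0.0054), interferon genes 4 and 6 of 10 (median -0.12), hypoxia and glycolysis genes 9 and 17 of 26 (median -0.08), cholesterol synthesis genes 8 and 16 of 24 (median -0.04) and mitochondrially encoded genes 6 and 4 of 10 (median 0.04). Without control replicate 3 the hypoxia list had 17 higher and 9 lower and the cholesterol list 15 and 9. Of 62 regulators that Polycomb silences in the forebrain, 3 had enough reads to be tested, too few to describe as a list.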
